A study of Mus musculus with 3 samples.

Results

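Keratins are the intermediate filament proteins of epithelial cells, and each filament is built from a type I and a type II chain. The 10 genes described here were chosen by name: the stress keratins Krt6a, Krt6b, Krt16 and Krt17, the skin-type keratins Krt1 and Krt10, the keratins of conjunctiva and other moist stratified linings Krt4, Krt13 and Krt19, and the simple-epithelium keratin Krt8. They were matched by Ensembl ID and are 10 of the 30406 genes found in every library, and 10 of 53 keratin genes. In skin, Krt6a and Krt6b pair with Krt16 and Krt17 and are known to be switched on by wounding and hyperproliferation. Krt1 and Krt10 pair in the upper layers of the epidermis, Krt4 and Krt13 pair in moist stratified epithelia, and Krt8 pairs with Krt18 in simple epithelia. The corneal epithelium itself is known for Krt12, and its basal cells for Krt5 and Krt14. In the cornea library labelled Aire knockout, Krt16 was 23.7-fold and Krt17 2.39-fold higher than in the wild-type one, Krt19 and Krt8 were lower, and Krt1 and Krt10 were scarce in all 3 libraries.

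Nuclei from whole mouse corneas were profiled by droplet sequencing with the 10x Genomics 3' kit, in 1 library per group. WT came from untreated wild-type mice, KO from untreated mice lacking Aire, and KO_PBS from mice lacking Aire that received phosphate-buffered saline for 14 days. Each library pooled the snap-frozen corneas of 5 mice aged 7 weeks, per the labels. Aire controls the display of self-antigens in the thymus, and the series text calls the knockout a dry eye model. That text states an age of 6 weeks and day 7 of treatment instead. Its lacripep group is not analysed here. The strain and the Aire allele are not given in the sources used here. The comparisons ask which keratins differ between the corneas of wild-type and knockout mice, and where the saline-treated cornea lies.

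WT had 96587 barcodes and 256852883 UMIs, KO had 107031 barcodes and 352627863 UMIs, and KO_PBS had 114357 barcodes and 178988562 UMIs (unique molecular identifiers, here counts of captured RNA molecules). Median UMIs per barcode were 2261, 2980 and 1432. These are far more barcodes than a droplet run is usually expected to hold as nuclei, and how many of them are nuclei was not tested. A share of barcodes, a number of barcodes with an excess or a correlation across barcodes is therefore a value over deposited barcodes, not over cells. Any pair of libraries shared between 2833 and 3379 barcode sequences, at most 3.16% of a library. Aire, the targeted gene, had 15 UMIs in WT against 27 in KO and 68 in KO_PBS, so that it did not check the labels. Every direction below is between libraries as labelled. Markers of the labelled tissue were present: 8 corneal epithelium genes (Krt12, Krt5, Krt14, Krt15, Aldh3a1, Tkt, Pax6 and Trp63) summed to 50611 CPM (UMIs scaled to a common library total) in the WT library, 34855 CPM in KO and 22087 CPM in KO_PBS. None of the 8 was at 0. The libraries also differed in other tissues: lens markers summed to 740, 262 and 8912 CPM, melanocyte markers to 481, 139 and 4109 CPM, keratocyte markers to 1652, 3915 and 6408 CPM (of which Ptgds alone made up 539, 133 and 4145 CPM, while 6 of the other 7, Kera, Lum, Dcn, Col1a1, Col1a2 and Col5a2, were highest in KO), and plasma cell markers to 112, 20341 and 1531 CPM. Their part in the results below was not tested. With 1 library per group there is no replicate check and no p-value, and all intervals are exact 95% Poisson or binomial intervals that cover counting error only. In sums over a library, fewer cells of a type and less RNA per cell cannot be told apart.

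A gene was counted as higher or lower when the 2 libraries together held 50 or more of its UMIs, their levels differed by a ratio of 2 or more, and their intervals were apart. Size alone decides such a count, with no test behind it. Between KO and WT, 20.6% of the 20252 genes with enough UMIs were counted higher and 8.63% lower, and the median log2 ratio over these genes was 0.24. Between KO_PBS and KO, 39.9% of 22416 genes were counted higher and 4.7% lower, with a median of 0.63. Between KO_PBS and WT the shares were 57% and 4.06% of 22138 genes, with a median of 1.27. Each ratio is therefore also given centred on the median gene, and scaled to 9 epithelial genes that are no keratins (Cdh1, Epcam, Dsp, Jup, Perp, Pkp1, Esrp1, Grhl2 and Trp63). These summed to 2543, 3373 and 1625 CPM in WT, KO and KO_PBS, while the corneal epithelium markers above were highest in WT. From WT to KO, Epcam fell from 232 to 127 CPM and the others rose, among them Cdh1 from 59.3 to 146 and Trp63 from 88.4 to 215. The scale is thus not read as a correction for the amount of epithelium. The 3 comparisons share libraries, so a ratio in any 2 of them fixes the ratio in the other.

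Of the 10 genes, the stress keratin Krt16 had the largest ratio between KO and WT, and the other stress keratins had smaller ones. Krt6a and Krt6b (ENSMUSG00000058354 and ENSMUSG00000023041) are type II genes close to each other on chromosome 15 (mm10, minus strand, 101689910 to 101694307 and 101676023 to 101680287, 9 exons each). Their coding sequences were identical at 1625 of 1665 aligned positions (97.6%), and the ends of the coding sequences are shown because the genes can be told apart only where they differ. The last 90 coding bases from GENCODE M21 follow, 5′ to 3′, with capitals for bases that differ or have no partner in the alignment of the pair.
Krt6a: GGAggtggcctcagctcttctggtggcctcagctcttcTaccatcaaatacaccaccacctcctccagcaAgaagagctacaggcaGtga
Krt6b: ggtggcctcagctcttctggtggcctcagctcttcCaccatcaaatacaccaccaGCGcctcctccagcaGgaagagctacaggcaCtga
Despite this likeness, 0 of 451 windows of 50 bases in the last 500 transcript bases of either gene occurred in a transcript of another gene. A gene model on the opposite strand overlaps Krt6a, and whether the counting used strand is not given in the sources used here.

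Krt6a had 1447 CPM in WT (370362 UMIs, 1442 to 1452 CPM), 1710.0 CPM in KO (600782 UMIs, 1706 to 1714) and 1176.5 CPM in KO_PBS (209203 UMIs, 1171 to 1182). Krt6b had 1295 CPM in WT (331332 UMIs), 1110.2 CPM in KO (390042 UMIs) and 866 CPM in KO_PBS (153953 UMIs). Krt6a was thus highest in KO and Krt6b highest in WT, and KO_PBS was lowest for both, with no overlap of counting intervals. The log2 ratio of KO over WT was 0.24 for Krt6a (-0.0038 centred, -0.17 by the epithelial genes) and -0.22 for Krt6b (-0.47 and -0.63), neither of which reached the rule of size. For KO_PBS over KO it was -0.54 for Krt6a and -0.36 for Krt6b, neither counted. Centring moved these to -1.17, where Krt6a was counted lower as were 12.9% of all genes, and -0.99, while scaling to the epithelial genes turned them to 0.51 and 0.69. For KO_PBS over WT the ratios were -0.30 and -0.58, or -1.57 and -1.85 when centred, where both were counted lower as were 23.1% of all genes, or 0.35 and 0.07 by the epithelial genes. The Krt6a to Krt6b ratio of UMIs, which needs no scaling between libraries, was 1.12 in WT, 1.54 in KO and 1.36 in KO_PBS.

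Krt16 and Krt17 (ENSMUSG00000053797 and ENSMUSG00000035557) are the type I partners, on chromosome 11 (minus strand, 100246091 to 100248902 and 100256217 to 100261029, 8 exons each). Their coding sequences shared 70.6% of aligned positions, and their last 90 coding bases are shown with the same use of capitals to set them beside the closely alike Krt6 pair.
Krt16: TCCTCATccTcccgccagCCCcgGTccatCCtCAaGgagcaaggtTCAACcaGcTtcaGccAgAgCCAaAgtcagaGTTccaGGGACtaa
Krt17: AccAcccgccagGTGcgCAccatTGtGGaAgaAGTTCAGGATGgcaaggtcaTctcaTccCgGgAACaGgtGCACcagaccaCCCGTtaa
Further upstream the pair is not distinct. A 55-base coding run, at bases 1211 to 1265 of the Krt16 transcript, is also found whole in Krt17 and in the basal keratin Krt14.
Shared run: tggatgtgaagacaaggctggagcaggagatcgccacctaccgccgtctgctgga
Of the 451 windows of 50 bases at the transcript end, 76 of Krt16 (16.9%) and 43 of Krt17 (9.53%) occurred in another gene. For Krt16 these genes were the gene model Gm11597, Krt14 and Krt17, and up to 70 windows were shared with a single gene. For Krt17 they were Krt14 and Krt16. How the counting treated reads from such windows is not given in the sources used here, so the values of Krt16, Krt17 and Krt14 are uncertain to that extent.

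Krt16 had 29.7 CPM in WT (7594 UMIs, 29.0 to 30.3 CPM), 704 CPM in KO (247200 UMIs, 701 to 706) and 110.5 CPM in KO_PBS (19649 UMIs, 109 to 112). KO stood far above WT, with KO_PBS in between. The ratio was 23.7-fold higher in KO than in WT, a log2 ratio of 4.57 (4.32 centred, 4.16 by the epithelial genes). KO_PBS was 6.37-fold lower than KO, a log2 ratio of -2.67 (-3.30 and -1.62, the last where 1.94% of all genes were counted lower), and 3.72-fold higher than WT, a log2 ratio of 1.90. Krt16 kept its direction under all 3 scalings in these comparisons, but centred on the median gene its ratio of KO_PBS over WT was 0.63 and was not counted (29.6% of all genes were then counted higher and 23.1% lower). Uncentred, 57% of all genes were counted higher in KO_PBS than in WT, so a count of 1 stress keratin in 4 lies below that background. By the epithelial genes 2 stress keratins, Krt16 and Krt17, were counted higher, where 74.7% of all genes were.

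Krt17 had 62.7 CPM in WT (16059 UMIs), 149.7 CPM in KO (52604 UMIs) and 95.5 CPM in KO_PBS (16974 UMIs). The order of the libraries was the same as for Krt16 over a smaller range. KO was 2.39-fold higher than WT and was counted, at a log2 ratio of 1.25 (1.01 centred). By the epithelial genes that ratio was 0.85 and was not counted. KO_PBS over KO was -0.65 and KO_PBS over WT was 0.61, neither counted, and both signs depended on the scaling. Centred, they were -1.28, which was counted lower as were 12.9% of all genes, and -0.66. By the epithelial genes they were 0.40 and 1.25, the last of which was counted higher as were 74.7% of all genes. The Krt16 to Krt17 ratio of UMIs was 0.473, 4.70 and 1.16 in WT, KO and KO_PBS. The Krt6a to Krt16 ratio was 48.8, 2.43 and 10.6 in the same order.

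Of the 4 stress keratins, 2 were counted higher and 0 lower in KO against WT (20.6% and 8.63% of all genes), with a median log2 ratio of 0.75 against 0.24 for all genes. Between KO_PBS and KO, 0 were higher and 1, Krt16, lower (39.9% and 4.7%), with a median of -0.59 against 0.63. The 4 made up 6.78%, 13.5% and 17.2% of all keratin UMIs in WT, KO and KO_PBS. That order differs from the order of Krt16 alone, which held 0.0710%, 2.58% and 0.844% of keratin UMIs in that order of libraries. Total keratin UMIs came to 41789 CPM in WT, 27288 CPM in KO and 13087 CPM in KO_PBS. The joint share was thus highest in KO_PBS while the CPM levels of all 4 genes were below those in KO, although Krt6a, Krt6b and Krt17 lay above KO when scaled to the epithelial genes.

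**Figure D1:**
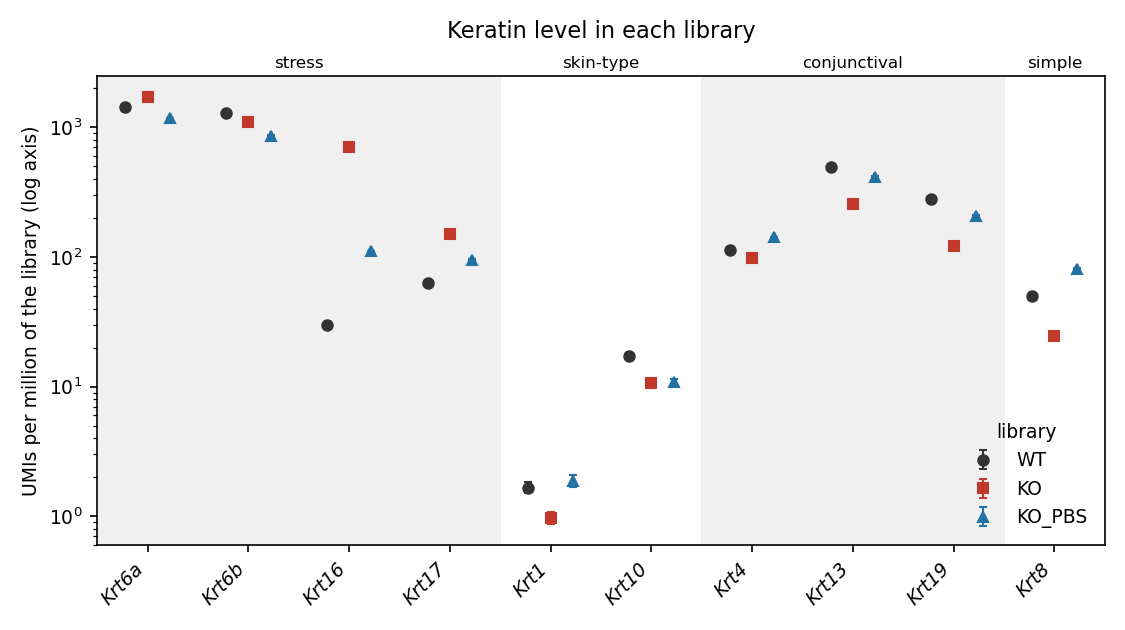
Level of each keratin in the 3 libraries, in UMIs scaled to a common library total (CPM) on a log axis, with exact 95% Poisson intervals (counting error only, mostly smaller than the symbols). Krt16 runs from 29.7 in WT to 704 in KO with KO_PBS at 110.5, while Krt13, Krt19 and Krt8 are lowest in KO.

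The skin-type keratins were scarce in all 3 libraries. Krt1 (ENSMUSG00000046834, chromosome 15, 101845426 to 101850794, 9 exons) had 425 UMIs or 1.66 CPM in WT (1.51 to 1.83), 343 UMIs or 0.976 CPM in KO (0.876 to 1.09) and 335 UMIs or 1.88 CPM in KO_PBS (1.69 to 2.10). WT and KO_PBS overlapped in their counting intervals, and KO lay below both. Its partner Krt10 (ENSMUSG00000019761, chromosome 11, 99385254 to 99389364, 8 exons) had 17.1 CPM in WT (4387 UMIs), 10.6 CPM in KO (3719 UMIs, 10.2 to 10.9) and 10.9 CPM in KO_PBS (1936 UMIs, 10.4 to 11.4). KO and KO_PBS overlapped, with WT above both. A gene model on the opposite strand overlaps Krt10.

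Neither skin-type keratin was counted in any comparison of CPM levels, but both were under other scalings. For KO over WT the log2 ratio was -0.77 for Krt1 and -0.70 for Krt10, below the median gene at 0.24. Scaled to the epithelial genes these were -1.17 and -1.10, and both were then counted lower, as were 16.8% of all genes, and when centred Krt1 was (-1.01, beside 12.9%). For KO_PBS over KO the ratios were 0.95 and 0.04, or 0.32 and -0.59 when centred. By the epithelial genes they were 2.00 and 1.09 and both were counted higher, as were 77.2% of all genes. For KO_PBS over WT they were 0.18 and -0.65, or -1.09 and -1.92 when centred, where both were counted lower as were 23.1% of all genes. By the epithelial genes they were 0.83 and -0.0090, not counted. No barcode held more than 2 UMIs of Krt1 or 4 of Krt10. Other skin-type genes, the cornified skin markers, summed to 19.5, 14.3 and 4.44 CPM in WT, KO and KO_PBS. Of these, filaggrin (Flg), a protein of cornified epidermis, made up 15.8, 10.8 and 0.472 CPM.

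The conjunctival keratins had their lowest CPM level in KO. Krt13 (ENSMUSG00000044041, type I, chromosome 11, 100117327 to 100121566, 8 exons) had 494 CPM in WT (126316 UMIs), 259 CPM in KO (90888 UMIs) and 418 CPM in KO_PBS (74348 UMIs). Krt19, the short type I keratin that lacks a tail domain (ENSMUSG00000020911, chromosome 11, 100140810 to 100148665, 6 exons), had 281 CPM in WT (71950 UMIs), 123 CPM in KO (43115 UMIs) and 207 CPM in KO_PBS (36839 UMIs). Krt4, the type II partner of Krt13 (ENSMUSG00000059668, chromosome 15, 101918535 to 101924735, 9 exons), had 113 CPM in WT (29026 UMIs), 97.9 CPM in KO (34386 UMIs) and 142 CPM in KO_PBS (25255 UMIs). In CPM the 3 genes thus shared the lowest place of KO, with Krt13 and Krt19 highest in WT and Krt4 in KO_PBS, but the place of KO_PBS depended on the scaling. For KO_PBS over WT the log2 ratios were -0.24 for Krt13, -0.44 for Krt19 and 0.32 for Krt4, with none counted. They were -1.51, -1.71 and -0.94 when centred, the first pair then counted lower beside 23.1% of all genes, and 0.41, 0.21 and 0.97 by the epithelial genes. Krt4 in KO_PBS lay just below KO when centred (-0.09).

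Of the 3, Krt19 was counted lower in KO against WT, at a log2 ratio of -1.20, and 0 were counted higher (8.63% of all genes were lower and 20.6% higher). Krt13 came to -0.93 and was counted lower once the ratios were centred (-1.18, where 12.9% of all genes were lower) or scaled to the epithelial genes (-1.34, where 16.8% were). Krt4 came to -0.21 and was not counted under any scaling. For KO_PBS over KO, the ratios were 0.54 for Krt4, 0.69 for Krt13 and 0.76 for Krt19, close to the median gene at 0.63, and 0 of 3 were counted where 39.9% of all genes were counted higher. Scaled to the epithelial genes all 3 were counted higher, where 77.2% of all genes were. The Krt4 to Krt13 ratio of UMIs was 0.230, 0.378 and 0.340 in WT, KO and KO_PBS, and the Krt13 to Krt19 ratio was 1.76, 2.11 and 2.02.

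Genes of conjunctival goblet cells were at low levels in all libraries. Muc5ac, the gel-forming mucin of these cells, had 1.75 CPM in WT, 0.290 in KO and 1.97 in KO_PBS, and the 7 goblet cell or conjunctival markers summed to 30.7, 21.7 and 23.3 CPM. Most of that sum came from Fcgbp (17.6, 16.5 and 13.2 CPM) and Agr2 (10.4, 4.52 and 3.82 CPM), both lowest in KO_PBS. Whether conjunctiva came along with the dissected corneas was not tested.

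Krt8 (ENSMUSG00000049382, type II, chromosome 15, 101996698 to 102004482, 9 exons, overlapped by a gene model on the opposite strand) had 50.04 CPM in WT (12806 UMIs), 24.7 CPM in KO (8665 UMIs) and 80.8 CPM in KO_PBS (14365 UMIs). In CPM, KO was lowest and KO_PBS highest, with no overlap of counting intervals. KO was counted lower than WT at a log2 ratio of -1.02, as were 8.63% of all genes. This ratio moved to -0.99 and was no longer counted when immunoglobulin, mitochondrial, haemoglobin, crystallin and ribosomal repeat genes were left out of the library total. KO_PBS was 3.28-fold higher than KO, a log2 ratio of 1.71, where 39.9% of all genes were counted higher. It stayed counted when centred (1.08, beside 29.8% of all genes). By the epithelial genes it was 2.77, where 77.2% of all genes were counted higher and the median gene stood at 1.68. KO_PBS over WT was 0.69 and was not counted. It turned to -0.58 when centred and came to 1.34 by the epithelial genes, where 74.7% of all genes were counted higher. The higher place of Krt8 in KO_PBS over WT thus depended on the scaling. Its partner Krt18 had 27.8, 16.8 and 100.2 CPM, so the Krt8 to Krt18 ratio of UMIs was 1.80, 1.46 and 0.806 in the same order. Markers of tissues that lie behind the cornea moved with Krt8: retinal pigment epithelium markers summed to 70.3, 24.8 and 372 CPM, and lens markers as given above. Their part in the level of Krt8 was not tested, and Krt8 in barcodes rich in such markers is given below.

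**Figure D2:**
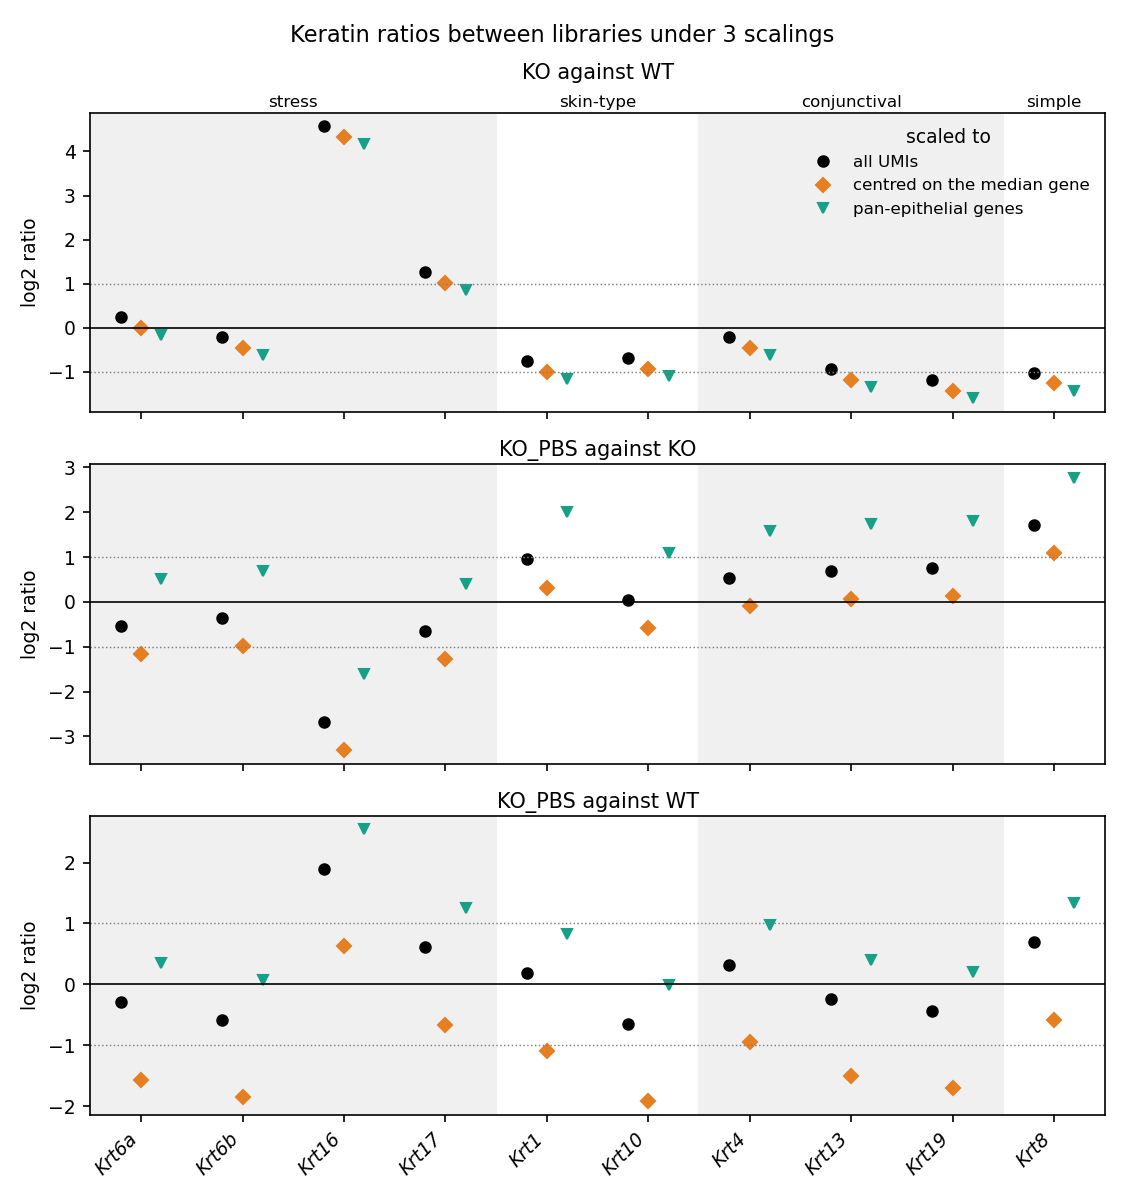
Log2 ratio of each keratin in the 3 comparisons, scaled to all UMIs (circles), centred on the median gene (diamonds) or scaled to 9 epithelial genes that are no keratins (triangles). Dotted lines mark a ratio of 2 either way. Krt16 lies at 4.16 or above in KO against WT under all 3 scalings, and many ratios with KO_PBS change sign with the scaling.

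The other 43 keratins give the setting for these values. In KO against WT, 3 were counted higher and 8 lower of 26 with enough UMIs (20.6% and 8.63% of all genes), with a median log2 ratio of -0.49 against 0.24 for all genes. Krt14, the type I keratin of basal cells, was higher at 1854 CPM against 609 CPM, a log2 ratio of 1.61. Krt15, a basal and limbal keratin, was lower at 792 against 2146 CPM (-1.44), as was Krt78 at 18.3 against 42.8 CPM (-1.23). From KO to KO_PBS, 16 were higher and 4 lower of 30, where 39.9% and 4.7% of all genes were. Among them were Krt18 (2.57), Krt90 (1.75), Krt7 (1.22) and Krt23 (1.13) higher and Krt5 (-1.58), Krt14 (-1.36) and Krt12 (-1.15) lower. When centred, Krt7 (0.59) and Krt23 (0.50) were no longer counted. By the epithelial genes, Krt5 (-0.52), Krt14 (-0.31) and Krt12 (-0.10) were no longer counted. In KO_PBS against WT, 12 were higher and 5 lower of 29, where 57% and 4.06% of all genes were, with Krt90 (2.40) and Krt18 (1.85) higher and Krt15 (-2.21), Krt12 (-2.07) and Krt5 (-2.03) lower. Krt18 was no longer counted there when centred (0.58). From WT to KO, Krt12 went from 26121 to 13793 CPM, a log2 ratio of -0.92 that was not counted. Centred it was -1.17 and by the epithelial genes -1.33. Krt5, Krt12 and Krt14 together held 85.1%, 81.0% and 69.4% of keratin UMIs in WT, KO and KO_PBS. Krt12 alone held 62.5%, 50.5% and 47.4%, Krt5 held 21.1%, 23.7% and 16.5%, and Krt14 held 1.46%, 6.79% and 5.51%. The 10 genes described here held 9.07%, 15.4% and 23.8%.

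Genes that are known to accompany stress keratins in wounded skin were taken from a list of 24, of which 22 were matched and 21 had enough UMIs. This list and those of the next paragraph were chosen with earlier results of these data known. Their counts are descriptions and no independent support. Of the 21 genes, 16 were counted higher and 0 lower in KO against WT, with a median log2 ratio of 1.47 against 0.24 for all genes. Of all genes, 20.6% were higher and 8.63% lower. When centred the counts were 12 and 0, beside 14.8% and 12.9% of all genes, and by the epithelial genes 12 and 0, beside 12.4% and 16.8%. The alarmin subunits S100a8 and S100a9 had 2.20 and 5.28 CPM in WT. In KO they had 218 and 430 CPM, and in KO_PBS 8.19 and 32.5 CPM. The cornified envelope precursor Sprr1a had 3.71, 139.7 and 39.3 CPM, and the cytokine Il1b had 0.735, 27.8 and 12.8 CPM. In CPM these genes had the same order of libraries as Krt16. Others did not: Stat3, a transcription factor of cytokine signalling, had 46.0, 127.7 and 136 CPM, and Sox9, a transcription factor of progenitor cells, had 7.86, 17.5 and 39.4 CPM. From KO to KO_PBS, 2 were higher and 9 lower, beside 39.9% and 4.7% of all genes (median -0.87 against 0.63), which became 0 and 13 when centred (beside 29.8% and 12.9%) and 5 and 5 by the epithelial genes, with a median of 0.19 against 1.68 for all genes, of which 77.2% were then higher and 1.94% lower. T cell markers summed to 1.76, 73.7 and 68.8 CPM and macrophage markers to 41.2, 646 and 643 CPM, and the part of immune cells in the list's values was not tested.

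Of 19 matched genes of skin-type cornification, 14 had enough UMIs, and 4 were higher and 2 lower in KO against WT (median -0.17). With so few genes these counts lie near the 20.6% and 8.63% of all genes, and nothing is read from them in that comparison. Those higher were Cdsn, Dmkn, Krtdap and Sbsn, secreted or desmosomal proteins of the upper epidermis, and those lower were Krt77 and Asprv1, a protease that processes filaggrin. Asprv1 stood at 4310 CPM in WT, 1287 in KO and 2898 in KO_PBS, which is the same order in CPM as Krt13 and Krt19. In KO_PBS against KO, 2 of the 14 were higher (Asprv1 and Krt77) and 6 lower (Cdsn, Dmkn, Dsg1a, Dsg1b, Flg and Ivl), beside 39.9% and 4.7% of all genes (median -0.74 against 0.63). These counts became 0 and 8 when centred, beside 29.8% and 12.9% of all genes, and 5 and 3 by the epithelial genes, beside 77.2% and 1.94%. Of 20 conjunctival and mucosal genes, 17 had enough UMIs, and 1 was higher and 6 lower in KO against WT (median -0.26 against 0.24 for all genes), again beside 20.6% and 8.63%. The 6 were the mucins Muc5ac, Muc5b and Muc16, the secretory cell protein Agr2, the surface protein Psca and the water channel Aqp5. Psca had 2950, 733 and 2070 CPM, again lowest in KO, as were these mucins. Agr2 (10.4, 4.52 and 3.82 CPM) and Aqp5 (9303, 4640 and 1895 CPM) were instead lowest in KO_PBS. The gene counted higher was Ly6d, at 1.84, 15.0 and 9.76 CPM. In KO_PBS against KO, 10 of 19 were higher and 1 lower, beside 39.9% and 4.7% of all genes (median 1.22 against 0.63). These counts became 7 and 5 when centred, beside 29.8% and 12.9%, and 11 and 0 by the epithelial genes, beside 77.2% and 1.94%.

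Among regulators known to act on keratin genes, described here with their values known, Trp63, Jun and Fosl2 were counted higher in KO against WT. Trp63, a key regulator of stratified epithelia, had 88.4, 215 and 93.9 CPM in WT, KO and KO_PBS. Jun (38.2, 120.8 and 74.4 CPM) and Fosl2 (51.3, 114 and 85.7 CPM) belong to the AP-1 family. Pax6, which maintains corneal identity, had 506, 400.3 and 459 CPM and was not counted. Scaled to the epithelial genes, among which Trp63 is itself, Jun still passed the rule of size, and Trp63 and Fosl2 did not.

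The spread of keratin UMIs over barcodes was examined after each barcode was thinned to 1000 UMIs, which left out 265, 226 and 16860 barcodes of WT, KO and KO_PBS. Krt16 had a UMI in 2.76%, 44.0% and 10.3% of barcodes of WT, KO and KO_PBS (6.62%, 77.8% and 15.1% without thinning). Keratocytes are cells of the stroma and should lack keratins, and barcodes rich in their markers (Ptgds included) gave 2.03%, 41.0% and 6.86% (1878, 1633 and 103 barcodes, median 3040.5, 3555 and 3207 UMIs). Barcodes rich in corneal epithelium markers gave 3.71%, 45.2% and 5.57% (432, 1014 and 310 barcodes, median 5778, 4668.5 and 2908 UMIs). In KO_PBS their share (3.28 to 8.77) lay below that of all barcodes (10.1 to 10.5). By level, Krt16 in them stood at 1.40, 1.52 and 1.18 times the library in WT, KO and KO_PBS. In keratocyte-marker-rich barcodes it stood at 0.859, 0.834 and 0.487 times, with no overlap of counting intervals between both kinds in any library. A level above the library was not particular to epithelium-marker-rich barcodes. In KO, melanocyte-marker-rich barcodes held Krt16 at 1.36 times and lens-marker-rich ones at 1.13 times. Those rich in plasma cell, retinal pigment epithelium, macrophage or corneal endothelium markers held it at 0.801 to 0.905 times. In KO the keratocyte-marker-rich share (38.6 to 43.4) lay slightly below that of all barcodes (43.7 to 44.3). In KO_PBS its interval (2.80 to 13.6) spanned that of all barcodes, and the level of Krt16 there was 0.487 times that of the library. Since barcodes of a cell type that should lack Krt16 held it this often, the shares are not read as shares of cells that express the gene.

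The other keratins were likewise found in keratocyte-marker-rich barcodes. Krt6a had a UMI in 75.4%, 80.7% and 68.7% of thinned barcodes, against 67.2%, 75.9% and 49.0% of keratocyte-marker-rich ones. Krt6b had 70.1%, 65.3% and 57.4% against 65.1%, 60.9% and 32.4%. Krt13 had 36.7%, 21.9% and 33.2% against 34.5%, 20.4% and 25.5%, and Krt19 had 23.5%, 11.3% and 18.3% against 22.8%, 10.2% and 13.7%. The keratocyte-marker-rich share of these 4 genes lay below that of all barcodes in each library, with the widest gaps for Krt6a and Krt6b in KO_PBS. For Krt6a and Krt6b this was beyond counting error in each library, while for Krt13 and Krt19 the intervals overlapped in each. Barcodes rich in corneal epithelium markers held Krt6a in 78.4%, 84.8% and 66.9%, above the keratocyte-marker-rich ones beyond counting error in each library, though in KO_PBS not above all barcodes. Krt6b had the same order, also beyond counting error in each library, at 71.9%, 73.7% and 52.8% of epithelium-marker-rich barcodes. Krt13 and Krt19 had epithelium-marker-rich above keratocyte-marker-rich barcodes only in KO (24.2% against 20.4%, and 12.8% against 10.2%). In WT, Krt13 and Krt19 were in 34.3% and 17.6% of epithelium-marker-rich barcodes, against 34.5% and 22.8% of keratocyte-marker-rich ones. In KO_PBS they were in 22.6% and 12.5%, against 25.5% and 13.7%. The counting intervals overlapped in each case. Over all thinned barcodes, Krt17 had 5.83%, 13.1% and 8.95%, Krt4 10.3%, 8.85% and 13.2%, Krt8 4.72%, 2.37% and 7.64%, Krt10 1.71%, 1.04% and 1.06%, and Krt1 0.154%, 0.0964% and 0.192%.

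**Figure D3:**
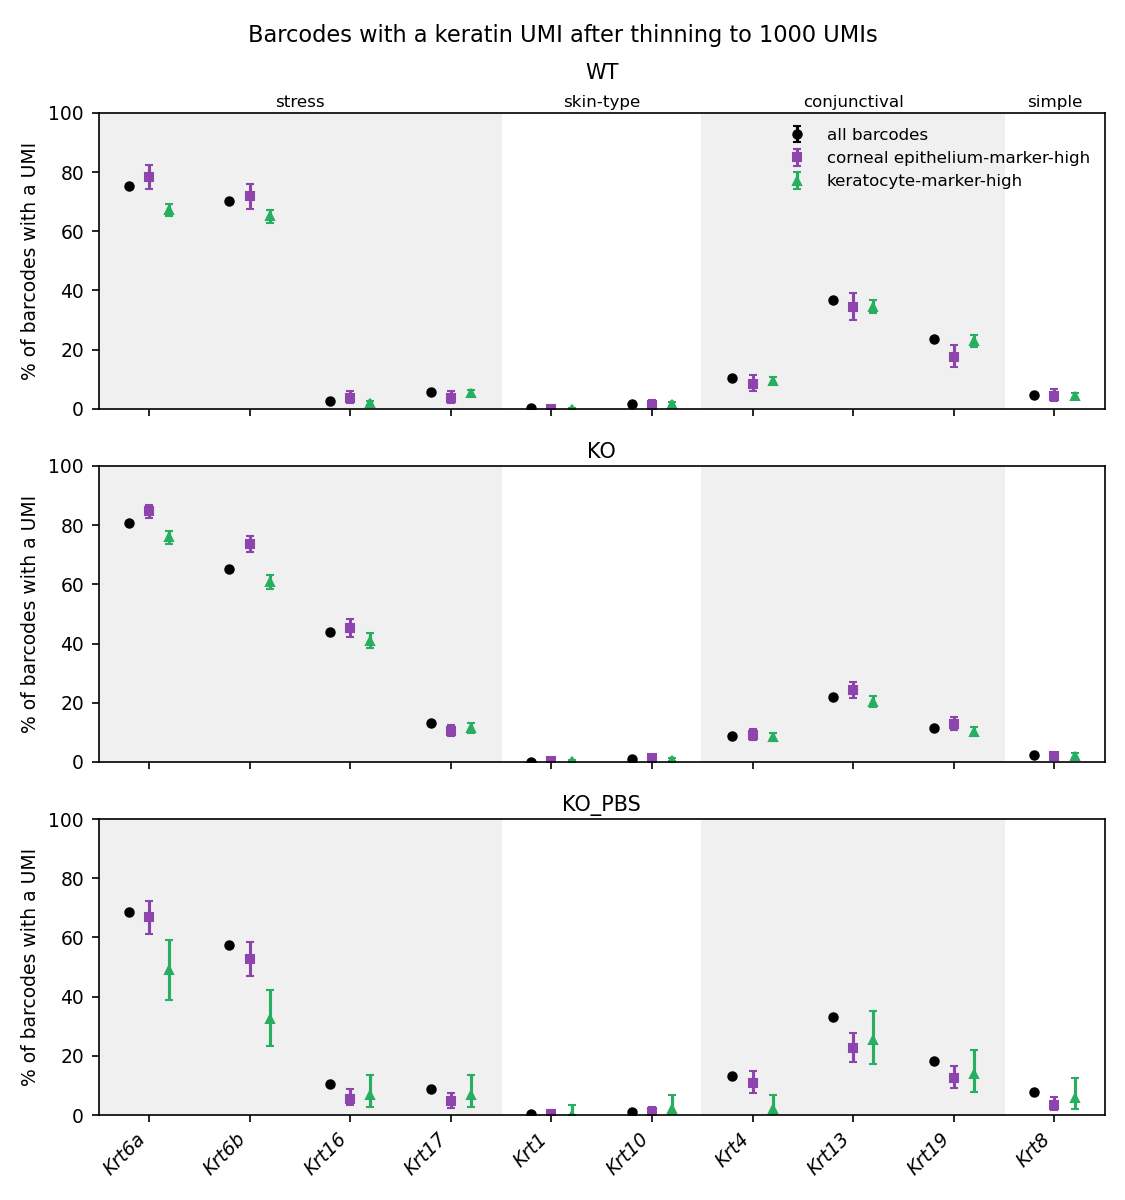
Percent of barcodes with at least 1 UMI of each keratin after thinning to 1000 UMIs, with exact 95% binomial intervals, for all barcodes, barcodes rich in corneal epithelium markers and barcodes rich in keratocyte markers. For Krt16 in KO the 3 kinds of barcode gave 44.0%, 45.2% and 41.0%.

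Some barcodes nevertheless held more of a keratin than the library's mean share allows. A barcode was said to have an excess of a gene when it had at least 3 UMIs and an upper Poisson tail below 1e-06. Krt16 had an excess in 1100 barcodes of KO (1.03%), which held 11.3% of its UMIs, and in 50 barcodes of WT and 37 of KO_PBS. In KO the level of Krt16 was 5352 CPM in those barcodes and 634 CPM in the rest, so the rest of KO alone lay above the 29.7 CPM of WT. The highest count in a barcode was 166 in KO, 27 in WT and 26 in KO_PBS. For the other members the number of such barcodes was at most 196 in a library, holding at most 4.04% of the gene's UMIs, and Krt1 and Krt10 had 0 in all libraries. The number depends on a gene's level and the depth, so it is not compared between libraries as a number of cells.

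Some barcodes had an excess of 2 keratins at once, and the largest number was that of Krt6b with Krt16 in KO. There, 110 barcodes had an excess of Krt6b and of Krt16, which is 61.8% of the Krt6b ones and 10.0% of the Krt16 ones, and 42 had an excess of Krt6a and Krt16 (70.0% and 3.82%). Krt6a and Krt6b shared 17, 36 and 22 barcodes of WT, KO and KO_PBS. Krt16 and Krt17, which both pair with Krt6, shared 4, 14 and 12, which in KO was 1.27% of the Krt16 ones and 10.9% of the Krt17 ones. Krt4 and Krt13 shared 38 barcodes of WT, which is 41.8% of the Krt4 ones and 19.4% of the Krt13 ones. They shared 46 barcodes of KO (37.7% and 31.7%) and 19 of KO_PBS (31.7% and 11.8%). Krt4 and Krt19 shared 41, 5 and 18.

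Barcodes with an excess of Krt6b and of Krt4 differed in Krt12, and Krt15 and Krt19 were above the library level in both. In the Krt6b barcodes Krt12 stood at 1.19, 1.39 and 1.70 times the library level in WT, KO and KO_PBS, and Krt5 at 1.06, 1.17 and 1.24 times. Krt15 stood there at 1.48, 1.56 and 4.08 times, Krt19 at 1.61, 2.31 and 4.06 times and Krt13 at 3.02, 2.50 and 5.08 times. In the Krt4 barcodes Krt12 stood at 0.619, 0.896 and 0.509 times the library level, while Krt15 stood at 7.91, 5.96 and 10.5 times and Krt19 at 8.85, 4.95 and 8.81 times. The Krt19 barcodes were alike, with Krt15 at 7.75, 6.87 and 12.4 times, Krt8 at 9.40, 12.8 and 7.91 times, and the simple-epithelium keratin Krt7 at 6.16, 7.43 and 5.81 times. The Krt17 barcodes had Krt15 at 4.71, 3.92 and 7.76 times and Krt14 at 4.57, 2.39 and 6.15 times. The Krt16 barcodes of KO had Krt6b at 2.29 times, Krt14 at 2.20 times, S100a8 at 3.34 times and Sprr1b, another cornified envelope precursor, at 4.59 times the library level, with Krt15 at 1.19, Krt4 at 1.25 and Krt12 at 1.14 times. The far fewer Krt16 barcodes of WT and KO_PBS differed from these, with Krt15 at 3.5 and 6.33 times and Krt4 at 4.58 and 7.54 times. S100a8 and Sprr1b had too few UMIs in those barcodes to compare.

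**Figure D4:**
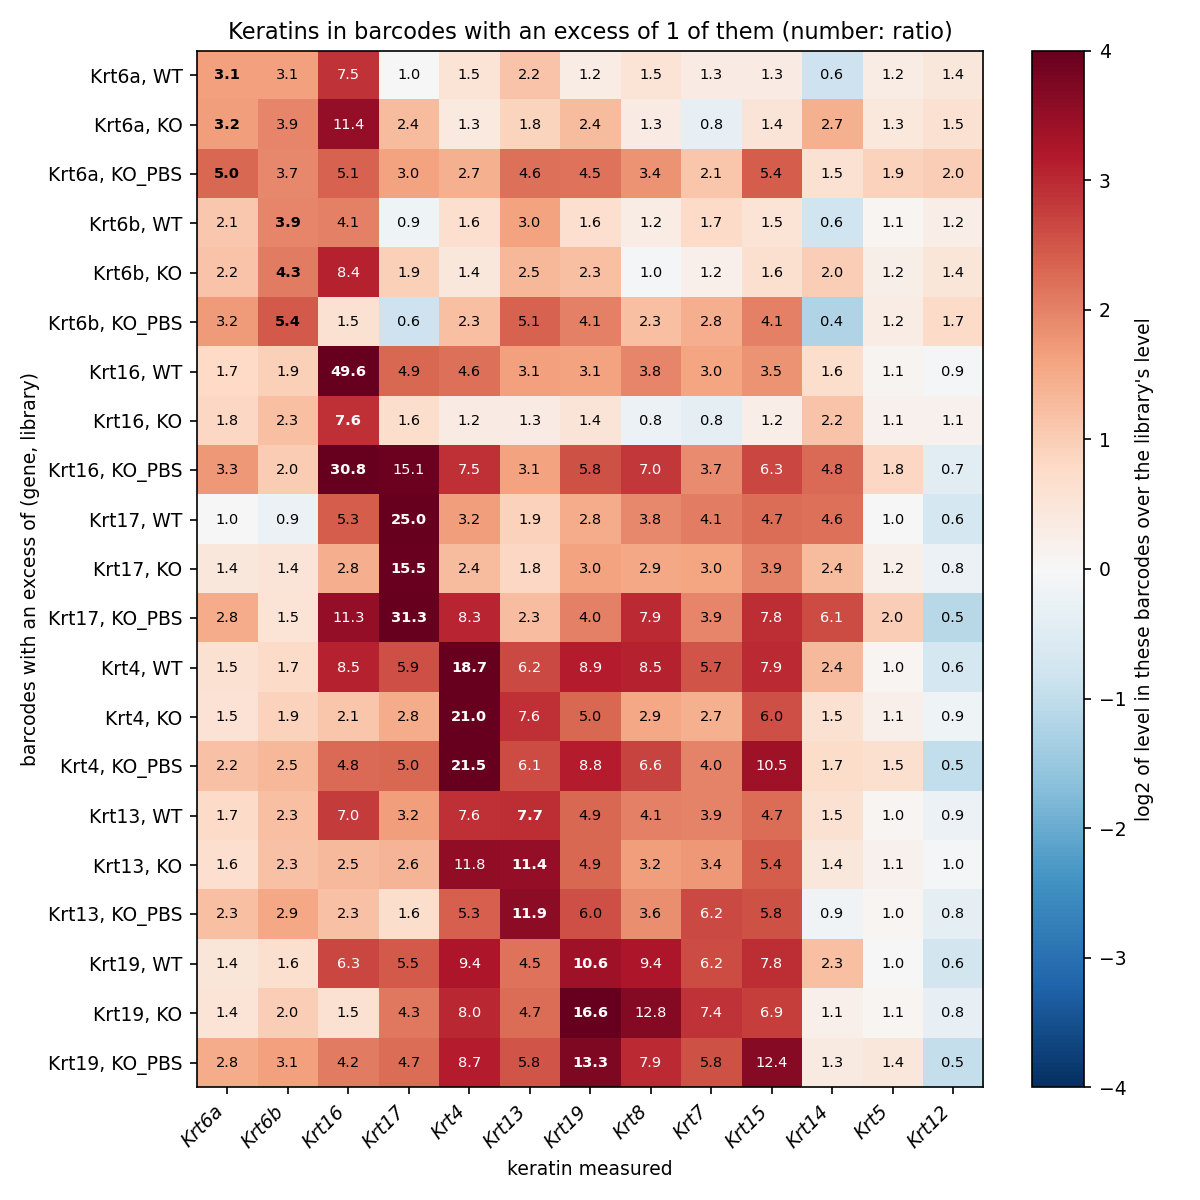
Level of 13 keratins in barcodes with an excess of the keratin named on the left, as a ratio to the level in the whole library (number in the cell, colour on a log2 scale that ends at 4 either way). Bold cells are the gene that chose the barcodes and are no result. Barcodes with an excess of Krt4, Krt13 or Krt19 hold high Krt15 and Krt7, while those with an excess of Krt6a or Krt6b hold Krt15 at 1.25 to 1.56 times the library level in WT and KO but at 5.38 and 4.08 times in KO_PBS.

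Correlations across barcodes gave the same pairs, at low values. They were computed on counts adjusted for the barcode total over 96587, 107031 and 114357 barcodes. Barcodes of a library share its depth and may share background RNA, which was not measured. Krt6a and Krt6b had a Pearson r of 0.26, 0.25 and 0.10 in WT, KO and KO_PBS. Krt6b and Krt16 had 0.07, 0.32 and 0.02, and Krt4 and Krt13 had 0.23, 0.23 and 0.08. These values were lowest in KO_PBS, the library with the fewest UMIs per barcode, though Krt16 itself had its fewest UMIs in WT. The part of depth was not tested, and weak values in such sparse counts are not read as relations. Among 11839 genes, the most alike to Krt6b by mean r over the libraries were Asprv1 (0.30), Psca (0.25), Mal (0.25), Gsto1 (0.23) and Aqp5 (0.23). Krt15 was first for Krt4 (0.26), Krt13 (0.23), Krt19 (0.28), Krt17 (0.16) and Krt8 (0.15). S100a6 was first for Krt6a (0.20). For Krt16 it was Cstdc5, a cystatin-family gene, with a mean of 0.16 and 0.39 in KO. Krt10 reached at most 0.0076 with any gene, and Krt1 had too few UMIs to be ranked.

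**Figure D5:**
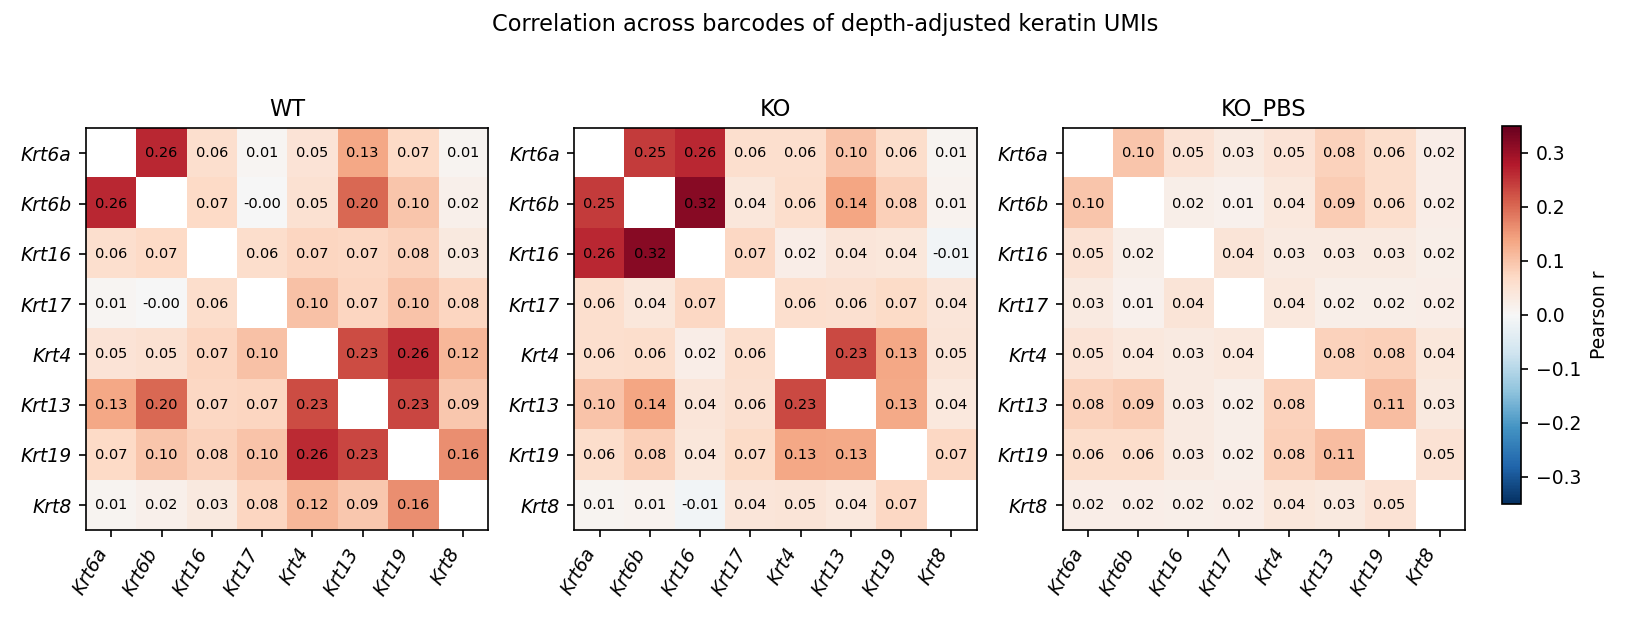
Pearson r across barcodes between depth-adjusted UMIs of 8 keratins in each library (Krt1 and Krt10 are left out because their counts are too sparse). In KO the triangle of Krt6a, Krt6b and Krt16 reads 0.25 to 0.32, and in WT the triangle of Krt4, Krt13 and Krt19 reads 0.23 to 0.26.

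Barcodes rich in markers of other cell types also held these keratins, in KO_PBS mostly at lower levels than the library as a whole. In those rich in retinal pigment epithelium markers (210, 165 and 137 barcodes of WT, KO and KO_PBS), Krt8 stood at 1.84, 2.18 and 1.89 times the library level. In lens-marker-rich barcodes (721, 168 and 271) it stood at 1.08, 1.40 and 0.868 times. The 82 barcodes of KO_PBS rich in the epithelial genes used for scaling held it at 2.59 times, and the stress and conjunctival keratins at 1.82 to 2.92 times. In the barcodes rich in retinal pigment epithelium markers, the other members stood at 0.758 to 1.11 times in WT and KO, leaving aside Krt1 and Krt10 with few UMIs. In KO_PBS, the stress and conjunctival keratins stood at 0.424 to 0.734 times in these barcodes, at 0.311 to 0.501 times in melanocyte-marker-rich ones (212 barcodes) and at 0.542 to 0.595 times in corneal endothelium-marker-rich ones (547 barcodes). In plasma cell-marker-rich barcodes of KO, of which there were 14704, all 10 stood at 0.892 to 0.971 times. In keratocyte-marker-rich barcodes of KO_PBS, the stress and conjunctival keratins stood at 0.349 to 0.528 times, against 0.791 to 0.909 times in WT and KO. Lower levels were not particular to other cell types. In corneal epithelium-marker-rich barcodes of KO_PBS, Krt17, Krt4, Krt13, Krt19 and Krt8 stood at 0.704, 0.609, 0.671, 0.580 and 0.345 times. Krt6a, Krt6b and Krt16 stood there at 1.53, 1.06 and 1.18 times.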

How the data were processed

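Single-nucleus libraries of 3 groups were used, 1 per group. The authors deposited raw counts of UMIs for each gene in each barcode, made with Cell Ranger 7.0.1 on mm10, per the submitters' processing notes. The annotation, the barcode filter and whether intronic reads were counted are not given in the sources used here. Totals ran over the 30406 Ensembl IDs shared by the 3 libraries, with 99.6%, 99.6% and 99.3% of UMIs in WT, KO and KO_PBS. Of these, 597 had another symbol in the KO_PBS list, none of them a member.

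UMIs were summed over all barcodes and scaled to a common library total (CPM). Depth makes counting error small for all members but Krt1 and Krt10. Marker-rich barcodes were those whose summed marker UMIs exceeded the library's mean share by the rule used for an excess, with no member as a marker. No clustering or doublet removal was done. The members, lists and tests were chosen with earlier results of these data known. All 10 members are named. Of other keratins, those named have 10 CPM or more in the higher of the 2 libraries and are the up to 5 counted ones with the largest ratio in each direction. Alike genes are the 5 with the highest mean Pearson r of Pearson residuals, among genes found in at least 0.5% of barcodes, for members with at least 500 UMIs in a library. Gene models, exons and coding sequences came from GENCODE M21 on GRCm38, the assembly that mm10 names. Counts over the list of keratin regulators are not reported here. Scripts were tested on simulated data. Alternatives tried are in the closing section. The scripts used biopython 1.88, matplotlib 3.10.9, pandas 2.3.3, scipy 1.17.1 and numpy 2.4.6 under Python 3.11.15.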

Additional observations from a re-analysis of the deposited data

How the results depend on the processing

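The counts of genes were recomputed with ratios centred on the median gene, with 2 other totals for scaling, with 2 selections of barcodes, with each barcode weighted equally, with thinning to 1000 UMIs, without a UMI minimum, with totals over all genes of each file and with a fold of 1.5. Of 300 such values 256 stayed within 1.5 times the reported count. Of 300 values of the members' log2 ratios, 110 moved beyond their counting interval, and no member ratio that was counted on CPM levels changed sign. Some ratios counted only under another scaling did. Krt17 in KO_PBS over WT, for example, was 1.25 by the epithelial genes and -0.66 when centred.

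Centring gave, in KO against WT, 1 skin-type and 2 conjunctival keratins lower. In KO_PBS against KO it gave 3 stress keratins lower, 10 other keratins higher and 2891 genes lower. In KO_PBS against WT it gave 0 stress keratins higher, 2 stress, 2 skin-type and 2 conjunctival keratins lower, 5 other keratins higher and 12 lower, and 6558 genes higher and 5106 lower. The share of higher genes among those counted moved from 70.4% to 53.3%, from 89.5% to 69.8% and from 93.3% to 56.2% in the 3 comparisons.

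Scaling to the epithelial genes gave, in KO against WT, 1 stress keratin higher, 2 skin-type and 2 conjunctival keratins lower, and 2514 genes higher and 3397 lower (42.5% higher). In KO_PBS against KO it gave 2 skin-type and 3 conjunctival keratins higher, 0 other keratins lower, and 17304 genes higher and 434 lower (97.6% higher). In KO_PBS against WT it gave 2 stress keratins higher and 374 genes lower (97.8% higher).

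A fold of 1.5 gave, in KO against WT, 2 skin-type and 2 conjunctival keratins lower, 5 other keratins higher, and 7000 genes higher and 3202 lower. In KO_PBS against KO it gave 2 stress keratins lower, 1 skin-type and 2 conjunctival keratins higher, and 1925 genes lower. In KO_PBS against WT it gave 2 stress keratins higher, 1 skin-type keratin lower and 1668 genes lower. These follow from the lower threshold. Thinning gave 3 other keratins and 929 genes lower in KO against WT, and 10 and 7 other keratins higher in KO_PBS against KO and WT. Without a UMI minimum, 2872 genes were lower in KO against WT, and 27 and 22 other keratins were higher in KO_PBS against KO and WT. Except for the fold and the minimum, the cause was not tested.

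Of 60 shares of UMIs in excess barcodes, 24 moved beyond their counting interval under another threshold. With a tail of 1e-04 Krt16 in KO had 1835 excess barcodes with 15.0% of its UMIs. No paired analysis was possible because each group has 1 library, and for the same reason no library could be left out. Depth limits Krt1, with 335 to 425 UMIs per library.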

Other observations

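The level of Krt16 varied with the depth of a barcode, in opposite directions in the 2 knockout libraries. From the 25% of barcodes with the fewest UMIs to the 25% with the most, it ran from 620 to 768 CPM in KO, from 26.4 to 31.8 CPM in WT and from 123 to 101 CPM in KO_PBS. Krt6a over the same range ran from 1724 to 1701 CPM in KO and from 1311 to 1084 CPM in KO_PBS. Krt17 ran from 143 to 153 CPM in KO and from 113 to 84.0 CPM in KO_PBS, and Krt4 from 98.9 to 96.4 CPM and from 165 to 127 CPM. The shallowest 25% of KO barcodes thus held Krt16 above its level in WT at any depth.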
